A study of Homo sapiens with 8 samples.

Results

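The dual-specificity MAPK phosphatases described here are 10 genes, DUSP1, DUSP2, DUSP4, DUSP5, DUSP6, DUSP7, DUSP8, DUSP10, DUSP14 and DUSP16. They were chosen by gene name, as phosphatases that act on MAP kinases, with earlier results of these data known. All 10 were among the 19475 entries of the mRNA table, and 9 of them were among the 11088 genes tested. They carried 70 of the 70751 m6A peaks and 20 of the 22001 union regions, which are stretches of exon covered by a peak in at least 1 library. The cells were HCT116, a human colorectal carcinoma line, given PBS (Control) or Fusobacterium nucleatum (FUSO), a bacterium found in colorectal tumours, for 2 h. There were 8 samples in the groups Control input, Control IP, FUSO input and FUSO IP, with 2 libraries each, where input is fragmented poly(A) RNA and IP is the part of it that bound an m6A antibody. All groups shared the same cell line and medium, and no gene was deleted or overexpressed in any of them.

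MAP kinases are switched on by phosphorylation of a threonine and a tyrosine in their activation loop, and dual-specificity phosphatases switch them off by removing both phosphates. Several of these phosphatases are themselves transcribed in response to the kinases they inactivate, which makes a negative feedback loop, and their short-lived mRNAs are classed with the immediate early genes. The family is usually divided into nuclear inducible enzymes, cytoplasmic enzymes selective for ERK, enzymes that prefer JNK and p38, and small atypical enzymes that lack the kinase-docking domain. N6-methyladenosine (m6A) is a methyl mark on adenosines of mRNA, placed by a complex around METTL3, mostly in DRACH sequences (R stands for a purine, D for any base but C and H for any base but G) and often near stop codons.

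The input libraries gave mRNA levels as FPKM, fragments scaled by transcript length and by the total mapped. With Control 1 set to 1, the relative input depth read from the lowest values was 1.11 for Control 2, 1.23 for FUSO 1 and 0.91 for FUSO 2. These ratios are rough, since they were shared, within 0.01 on the log2 scale, by only 8 of 296, 12 of 326 and 12 of 261 genes. Neither the absolute depth nor that of the IP libraries was known. A library held 14566 to 14816 genes above 0. The 6 epithelial markers summed to 5171 and 4795 FPKM in Control and to 4353 and 4721 in FUSO, lower in both FUSO libraries, and their part in the results was not tested. Of the 5 tested, none was called, and KRT8 alone had an unadjusted p under 0.05 (log2 difference -0.18, limma adjusted p = 0.291), while VIL1 was at 0 in 3 libraries and at 0.018 in FUSO 2. The epithelial sum was mostly keratin, of which KRT8 and KRT18 were lower in both FUSO libraries and KRT19 overlapped. EPCAM and CDH1 went the other way. EPCAM was at 178.2 and 161.8 FPKM in Control and 183.2 and 184.1 in FUSO, and CDH1 at 11.92 and 12.17, then 13.43 and 13.63. The 8 markers of leukocytes, endothelium and fibroblasts summed to 4.865 and 3.896 FPKM in Control and 6.051 and 5.31 in FUSO. Nearly all of that sum was COL1A1, CD3E was at 0 in every library, and 7 of the 8 were under 1 FPKM throughout.

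The first comparison asked which phosphatase mRNAs changed with the bacterium. DUSP1, DUSP5 and DUSP8 rose about 2-fold, and none of the 9 tested members fell at an adjusted p under 0.05 in limma. At an unadjusted p under 0.05 the count was 3 higher and 1 lower, the latter DUSP4. Over all 11088 tested genes, 0.667% were called higher and 0.135% lower, and 781 and 715 passed the unadjusted p in each direction. The median log2 difference in FPKM + 1, FUSO minus Control, was 0.13 over the 9 tested members and 0.01 over all tested genes. Both FUSO libraries lay above both Control libraries for 8 of the 10 members and below them for DUSP4, against 26.1% and 21.1% of tested genes, while those of DUSP7 overlapped. In bulk RNA, a change in the number of responding cells and a change of RNA per cell cannot be told apart.

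**Figure D1:**
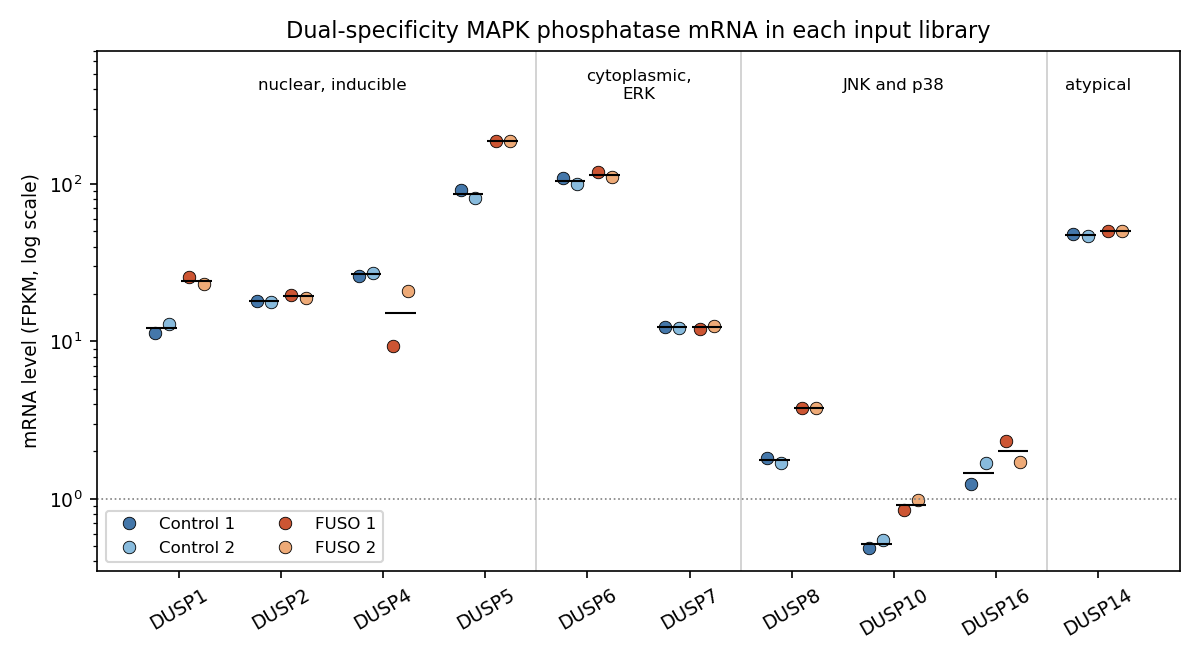
mRNA level (FPKM, log axis) of the 10 members in the 2 Control and 2 FUSO input libraries, with points for libraries, short black lines for group means and a dotted line at 1 FPKM. The FUSO points of DUSP1, DUSP5 and DUSP8 sit well above their Control points, whereas the FUSO points of DUSP4 are far apart, at 9.363 and 20.74 FPKM.

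Among the nuclear inducible phosphatases, DUSP1, which inactivates ERK, JNK and p38, lies at chr5:172195099-172198198 on the minus strand (GRCh37). Its level was 11.31 FPKM in Control 1, 12.88 in Control 2, 25.51 in FUSO 1 and 22.96 in FUSO 2. Both FUSO libraries were high, and the groups were separated by a gap several times the distance within either. The mean went from 12.1 ± 1.11 to 24.24 ± 1.80 FPKM (SD, n = 2), a ratio of 2.0, with a log2 difference of 0.95 (SE 0.093, 95% interval 0.72 to 1.18, limma adjusted p = 0.019). With FUSO 1 or FUSO 2 left out the difference was 0.87 and 1.02, and the adjusted p was 0.196 and 0.12. In such a fit, here and for the genes that follow, the lone library of a group is assumed to vary like the other group, whose pair alone gives the spread. The 5 tested genes whose values over the 4 libraries lay closest to those of DUSP1 were EFNA1, an ephrin ligand, THBS1, the matrix protein thrombospondin, PLAUR, the urokinase receptor, BTG2, an antiproliferative factor, and ZFP36, an RNA-binding protein of mRNA decay. Their Euclidean distances from it on the log2 scale, after centring on the Control mean, were 0.119 to 0.215.

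The promoters of DUSP1 and DUSP8 are shown because both genes were called and both windows hold the cyclic AMP response element TGACGTCA, which reads the same on both strands. The windows run from 250 bases before to 50 bases after the start site, 5′ to 3′ on the minus strand of GRCh38.p14, from RefSeq, with the element in capitals, and lie at chr5:172771146-172771445 and chr11:1572222-1572521.
DUSP1: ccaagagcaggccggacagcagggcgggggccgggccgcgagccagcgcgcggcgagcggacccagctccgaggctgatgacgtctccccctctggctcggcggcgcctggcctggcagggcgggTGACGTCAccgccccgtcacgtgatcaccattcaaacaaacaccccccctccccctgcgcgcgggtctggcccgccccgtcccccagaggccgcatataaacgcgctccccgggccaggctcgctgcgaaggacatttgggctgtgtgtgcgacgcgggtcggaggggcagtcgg
DUSP8: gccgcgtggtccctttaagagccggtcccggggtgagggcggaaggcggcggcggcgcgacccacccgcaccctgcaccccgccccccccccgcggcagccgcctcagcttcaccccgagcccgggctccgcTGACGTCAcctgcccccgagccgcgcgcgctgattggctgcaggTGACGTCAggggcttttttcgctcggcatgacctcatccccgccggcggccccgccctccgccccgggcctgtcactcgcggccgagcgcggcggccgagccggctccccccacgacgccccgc
Counted from the start site, the element began at position -125 in DUSP1 and at positions -118 and -74 in DUSP8. It was in no window of the other 6 matched members (DUSP2, DUSP6, DUSP7, DUSP10, DUSP14 and DUSP16). DUSP4 and DUSP5 had no matched window and were not searched, so nothing is known here of the element in DUSP5, the called member with the largest rise. The element was in 1.85% of all 35116 promoters of the same length, which were not matched for GC content. The GC content was 73.3% in the DUSP1 window and 78.3% in the DUSP8 window. The shorter TGACG, counted on both strands and overlapping the full element, occurred 4 times in each of the printed windows, once in a window of DUSP10 and in 24.6% of all promoters. The AP-1 motif TGANTCA and the CArG box of serum response factor were in no matched member and in 7.71% and 1.29% of all promoters. An NF-kB motif was in DUSP7 alone among the matched members, and in 11.3% of all promoters. These matches describe letters in a window and not binding.

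DUSP5, a nuclear phosphatase selective for ERK, lies at chr10:112257665-112271291 on the plus strand. Its level was 91.31 FPKM in Control 1, 81.61 in Control 2, 187.1 in FUSO 1 and 186.3 in FUSO 2. The FUSO libraries were nearly equal, and both stood at over 2 times either Control library. The mean went from 86.46 ± 6.86 to 186.7 ± 0.517 FPKM (SD, n = 2), a ratio of 2.16, and the log2 difference was 1.10 (SE 0.069, 95% interval 0.93 to 1.28, limma adjusted p = 0.00485). It was the largest rise among the tested members. With FUSO 1 or FUSO 2 left out it was 1.10 and 1.11, with an adjusted p of 0.107 and 0.104. The closest genes over the 4 libraries were TNFAIP2, PRSS23, MOCS2, CDV3 and BTG2, at distances of 0.0348 to 0.211, so BTG2 was near both DUSP1 and DUSP5.

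DUSP2, a nuclear phosphatase of ERK and p38 best known from activated leukocytes, lies at chr2:96808908-96811179 on the minus strand. Control had 18.01 and 17.89 FPKM and FUSO 19.75 and 18.86. The groups did not overlap, but they were close, and the log2 difference of 0.10 did not pass (95% interval -0.06 to 0.26, limma adjusted p = 0.529). DUSP4, a nuclear phosphatase of ERK and JNK, lies at chr8:29190581-29208201 on the minus strand. Its mRNA had 26.12 and 27.34 FPKM in Control, 9.363 in FUSO 1 and 20.74 in FUSO 2. Both FUSO values were lower than Control, FUSO 1 by far the lower. The mean was 26.73 ± 0.864 and 15.05 ± 8.05 FPKM (SD, n = 2). The log2 difference was -0.88 (SE 0.33, 95% interval -1.70 to -0.07), with an unadjusted p under 0.05 but a limma adjusted p of 0.348. The FUSO libraries differed from each other by 1.07 on the log2 scale, a gap reached by 76 of the tested genes (0.685%) and by 23 of 3514 genes of like level. Without FUSO 1 the difference was -0.35 (adjusted p = 0.682), and without FUSO 2 it was -1.42 (adjusted p = 0.051). DUSP4 was thus the member whose value rested most on 1 library.

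Of the cytoplasmic enzymes selective for ERK, DUSP6, a standard readout of ERK activity at chr12:89741012-89746278 on the minus strand, was the most abundant member in Control. Its level was 108.8 and 99.64 FPKM in Control and 118.6 and 109.9 in FUSO. The lowest FUSO value was only just above the highest Control value, and the log2 difference was 0.13 (95% interval -0.04 to 0.31, limma adjusted p = 0.468). DUSP7, its close relative at chr3:52082935-52090587 on the minus strand, was at 12.35 and 12.22 FPKM in Control and 11.99 and 12.54 in FUSO. Its Control values lay between its FUSO values, and the log2 difference of -0.0022 had a 95% interval of -0.17 to 0.17 (limma adjusted p = 0.993). The intervals of both genes exclude a 2-fold change, which at their levels is a difference a little under 1 on this scale. They leave room for smaller changes.

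Of the enzymes that prefer JNK and p38, DUSP8 lies at chr11:1575281-1593501 on the minus strand. Its level was 1.813 and 1.69 FPKM in Control and 3.748 and 3.758 in FUSO. Both FUSO values were above 2 times either Control value, at a low level of mRNA. The mean went from 1.752 ± 0.0864 to 3.753 ± 0.00654 FPKM (SD, n = 2), a ratio of 2.14, and the log2 difference was 0.79 (SE 0.087, 95% interval 0.57 to 1.01, limma adjusted p = 0.0265), which the pseudocount of 1 makes smaller than the ratio. With FUSO 1 or FUSO 2 left out the difference was 0.79 both times, with an adjusted p of 0.223 and 0.215. The closest genes were IER3, an immediate early survival gene, ZC3H12A, an endoribonuclease that degrades inflammatory mRNAs, SDC4, a heparan sulfate proteoglycan, NOCT and KRTAP2-1, at distances of 0.0511 to 0.105. The antisense gene KRTAP5-AS1 overlaps the start of DUSP8, and antisense lncRNAs also overlap DUSP1, DUSP6 and DUSP16. The strand setting of the counting was not given in the sources used here, so without strand the reads of such pairs cannot be told apart.

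DUSP10, which inactivates JNK and p38 and lies at chr1:221874766-221915431 on the minus strand, was at 0.4903 and 0.5491 FPKM in Control and 0.8514 and 0.9797 in FUSO. Both FUSO values were higher, with a ratio of means of 1.76, but the mean over the 4 libraries was under 1 FPKM and the gene was not tested. With no filter on low values, its log2 difference was 0.33 (limma adjusted p = 0.253). DUSP16, a JNK phosphatase at chr12:12626216-12715797 on the minus strand, was at 1.243 and 1.687 FPKM in Control and 2.318 and 1.724 in FUSO. FUSO 2 was barely above Control 2, and the log2 difference of 0.29 did not pass (95% interval -0.07 to 0.66, limma adjusted p = 0.44). DUSP14, a small atypical phosphatase at chr17:35849997-35873603 on the plus strand, was at 47.84 and 46.59 FPKM in Control and 50.12 and 50.41 in FUSO. Its libraries were close together throughout, and the log2 difference was 0.09 (95% interval -0.05 to 0.23, limma adjusted p = 0.514).

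The order of the levels changed at the top. In Control it was DUSP6, DUSP5, DUSP14, DUSP4, DUSP2, DUSP7, DUSP1, DUSP8, DUSP16 and DUSP10. The Control values of neighbouring genes did not overlap, except those of DUSP7 and DUSP1. DUSP8 and DUSP16 were nearly equal in Control 2, at 1.69 and 1.687 FPKM, so their order is not firm. In FUSO, DUSP5 was first, DUSP6 second, and DUSP1 moved from rank 7 to rank 4. The summed level of the 10 members was 319.3 and 302.1 FPKM in Control and 429.3 and 428.2 in FUSO. DUSP5 made up 28.6% and 27.0% of that sum in Control and 43.6% and 43.5% in FUSO. The share of DUSP6 was 34.1% and 33.0% in Control and 27.6% and 25.7% in FUSO, although its own level was not called. The enzymes that prefer JNK and p38 were a minor part of the mRNA, with no such gene above 0.878% of the sum in any library.

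**Figure D2:**
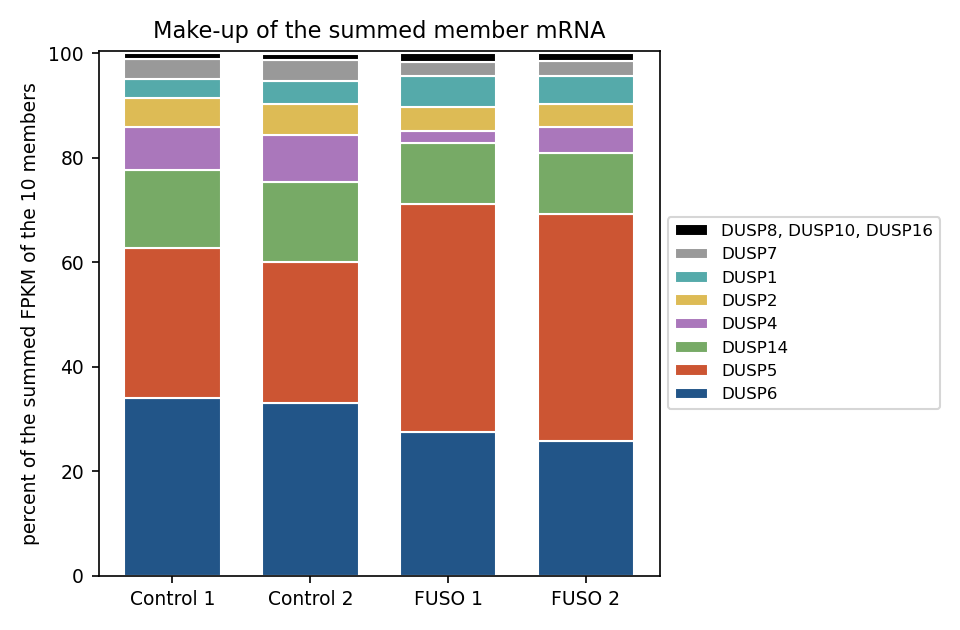
Percent of the summed FPKM of the 10 members taken by each gene, stacked from 0 to 100, in each input library. DUSP5 takes 28.6% and 27.0% in Control and 43.6% and 43.5% in FUSO, and the DUSP4 block is narrowest in FUSO 1.

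The next comparison set the members beside the rest of the pathway. Of the 16 other dual-specificity phosphatases, 10 were tested and none was called in limma, though 2 reached an unadjusted p under 0.05 as higher and 0 as lower, with a median log2 difference of 0.11. The largest difference was that of DUSP18, a small atypical phosphatase, at 0.8739 and 1.562 FPKM in Control and 2.053 and 2.208 in FUSO (0.51, limma adjusted p = 0.299). Of 8 other phosphatases that act on MAP kinases, 5 were tested and none was called in limma, with 1 higher and 0 lower at the unadjusted p. The largest difference there was that of PPP2CB, a catalytic subunit of PP2A (0.19, limma adjusted p = 0.329). The calls were therefore 3 of 9 members against 0 of 15 other tested phosphatases, a difference that was not tested. Enzymes that act on MAP kinases are also among those 15, so the count does not set such enzymes apart from others. DUSP9 and DUSP3, both among the 15, had log2 differences of -0.06 and 0.20 (limma adjusted p = 0.849 and 0.329).

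The kinases that these enzymes act on, and those upstream, gave no call in limma. Of 13 MAP kinases, 11 were tested, with 2 lower and 0 higher by an unadjusted p under 0.05 and a median of -0.01. MAPK9, a JNK, had the largest difference, with 7.128 and 6.323 FPKM in Control and 5.018 and 4.959 in FUSO (-0.37, limma adjusted p = 0.224). Of 7 MAP kinase kinases, 6 were tested, with 1 higher and 0 lower at the unadjusted p and a median of 0.02. MAP2K7, a kinase of JNK, had the largest difference, -0.37 (limma adjusted p = 0.523), which came from Control 2 at 14.55 FPKM beside 8.312 in Control 1, 8.08 in FUSO 1 and 8.573 in FUSO 2. Without Control 2 it was 0.0018 (adjusted p = 0.993). Without Control 1 it was -0.74 (adjusted p = 0.0246), a value set by the lone Control 2, whose spread was taken from the FUSO libraries. Of 21 MAP kinase kinase kinases, 18 were tested, with 1 higher and 1 lower at the unadjusted p and a median of 0.03. MAP3K14, the kinase upstream of non-canonical NF-kB signalling, had the largest difference, from 10.87 and 10.8 FPKM in Control to 13.66 and 14.25 in FUSO (0.34, limma adjusted p = 0.169).

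Other feedback and output genes of the same signalling are the Sprouty and SPRED inhibitors and the immediate early genes. Of 7 Sprouty and SPRED genes, 4 were tested, none was called in limma, and the unadjusted p was under 0.05 for 1 higher and 0 lower gene. That gene was SPRY4, at 27.37 and 26.38 FPKM in Control and 36.94 and 36.88 in FUSO, with a log2 difference of 0.44 (limma adjusted p = 0.0519). With Control 1 or Control 2 left out its adjusted p was 0.0312 and 0.0354, from a fit in which the lone Control library is assumed to vary like the FUSO libraries. Of 18 immediate early and ERK output genes, 15 were tested, 6 rose, none fell, and 9 were higher at the unadjusted p, with a median of 0.43.

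JUN, a subunit of AP-1, was at 16.88 and 17.58 FPKM in Control and 51.66 and 51.73 in FUSO, a ratio of 3.0 and a log2 difference of 1.53 (limma adjusted p = 0.00082). ATF3, a stress-induced bZIP factor, was at 4.522 and 5.377 FPKM in Control and 16.41 and 17.52 in FUSO (1.60, limma adjusted p = 0.00482). The log2 differences of both were above those of every member. IER3, JUNB, EGR1 and IER2 had log2 differences of 0.79, 0.66, 0.74 and 0.43, with limma adjusted p-values of 0.00601, 0.0114, 0.0265 and 0.0342. Without FUSO 1 or without FUSO 2, JUN alone of the 6 remained called, in fits that take the spread from the Control libraries. FOS, named after its values were seen because it is the classic partner of JUN, was at 83.81 and 99.77 FPKM in Control and 101.8 and 82.34 in FUSO. Its groups overlapped, with a log2 difference of 0.0019 (95% interval -0.32 to 0.32, limma adjusted p = 0.997).

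**Figure D3:**
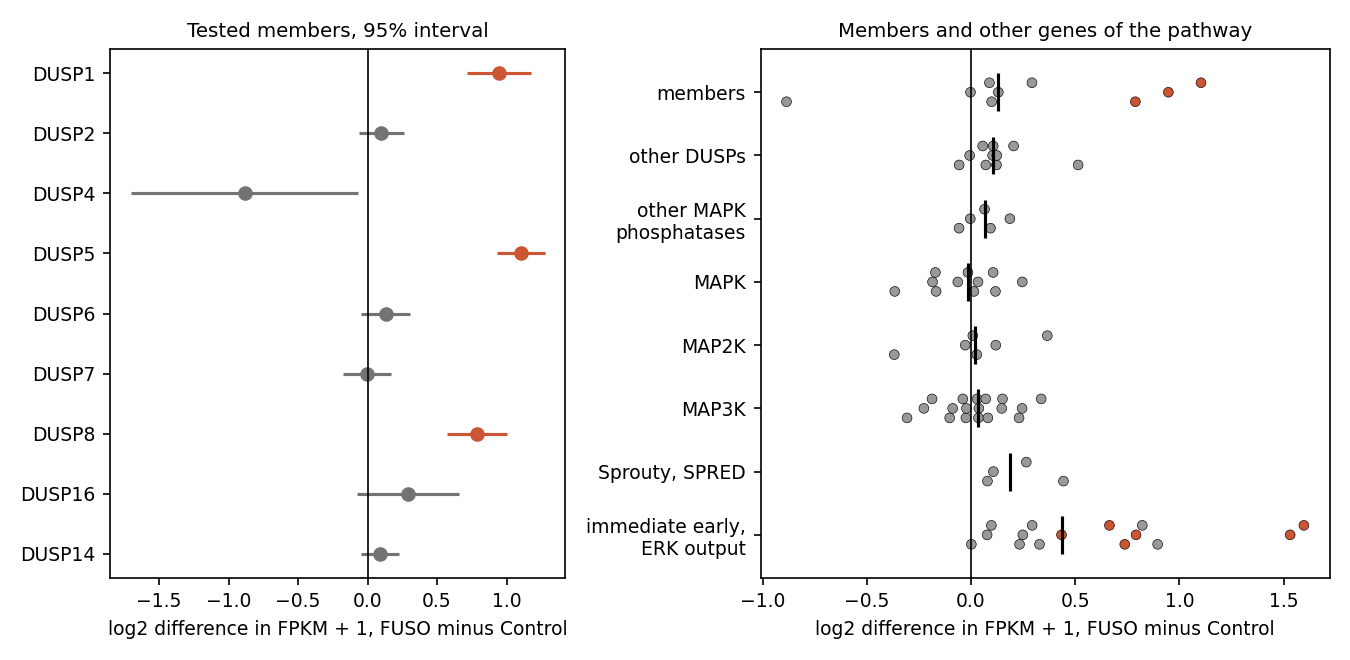
Log2 difference in FPKM + 1, FUSO minus Control: left, each tested member with its 95% interval, right, all tested genes of the members and of 7 other lists as points with the list median as a black bar. Orange marks a limma adjusted p under 0.05, which holds for 3 members and 6 immediate early and ERK output genes and for no gene of the other lists.

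The second kind of data was the m6A peaks, called for each IP library against the input of its replicate. The lists held 22 and 16 member peaks in Control and 15 and 17 in FUSO, means of 19.0 ± 4.24 and 16.0 ± 1.41 (SD, n = 2, two-sided exact permutation test, p = 0.667). The highest and a middle count were both Control, so the groups overlapped. Covered exon was 9745 and 10869 nt in Control and 10572 and 10306 nt in FUSO, means of 10307 ± 795 and 10439 ± 188 nt (exact permutation p = 1). With 2 libraries against 2 the smallest p of this test is 0.333. The higher peak count of Control 1 thus went with the lowest covered length, and 5 of its 22 peaks were pieces of a single DUSP7 region.

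All 10 members had a peak in at least 1 list, as did 83.9% of tested genes. At least 1 region in all 4 lists was found in 7 of the 10 members (DUSP1, DUSP4, DUSP5, DUSP6, DUSP7, DUSP14 and DUSP16), against 67.2% of tested genes. Of the 20 member regions 11 were in all 4 lists, where 51.5% of all regions were. The 3 members with no such region were DUSP2, at 17.95 FPKM in Control, and DUSP8 and DUSP10, at 1.752 and 0.5197 FPKM, and the part of mRNA level in these counts was not tested. A list gives no value where no peak was called, and no fold enrichment where one was, so the height of a mark could not be compared between groups.

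Peaks covered most of some transcripts and little of others. DUSP5 peaks covered 61.3% and 63.7% of its 2477 nt canonical transcript in Control and 62.5% and 68% in FUSO, mostly as 1 long region of 1696 nt from the later part of the coding sequence through the 3′UTR. DUSP6 peaks covered 54.2% and 64% of 3627 nt in Control and 51.8% and 58.3% in FUSO. Both genes had a deposited score of 0, the smallest possible, in every list for their main region. DUSP7 was covered over 52.7% and 64.2% in Control and 58.8% and 60.6% in FUSO, and DUSP14 over 57.1% to 59.1% in all lists. DUSP14 was unusual in place, since its region spanned the coding sequence and 5′UTR and ended 25 nt past the stop codon.

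DUSP1 had 2 regions, both present in every list. The one around its stop codon, at positions -251 to 284 nt from it, had scores of 1.3e-26 and 1.6e-35 in Control and 1.6e-45 and 4e-39 in FUSO, where a score is read as the authors' p-value for IP against input. Its second region, at the start of the coding sequence, covered 91 and 357 nt in Control and 387 and 268 nt in FUSO, with scores of 0.0021 and 1e-14, then 2.2e-09 and 1.6e-11. Control 1 held the shortest of those peaks, with the highest score. DUSP4 likewise had a region around the stop codon and one at the start of the coding sequence in every list, the latter 780 and 870 nt long in Control and 480 nt in both FUSO lists. Its scores there were 1.3e-56 and 1e-68 in Control and 6.3e-45 and 1.6e-33 in FUSO. The scores of the region around its stop codon were 1e-121 and 1e-145 in Control and smaller in FUSO, at 1e-171 and 1e-156. Scores are p-values and do not give the height of the mark. In both regions the smaller FUSO score was that of FUSO 1, the library with the lower DUSP4 mRNA, and the part of mRNA level in the scores was not tested.

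The scores of the remaining members differed widely, and the part of mRNA level in them was not tested. The DUSP14 region had scores of 1e-91 and 1e-81 in Control and 2e-97 and 1e-108 in FUSO, and the DUSP7 region had 1.6e-31 and 4e-31 in Control and 6.3e-39 and 3.2e-23 in FUSO. DUSP16 had 2 regions with a peak in every list, and 1 of them was 240 nt in the 5′UTR. The other, 1018 nt of coding sequence merged from separate peaks, had scores of 0.00015 and 6.9e-05 in Control and 1.3e-05 and 6.8e-05 in FUSO. No base of that merged region was covered in every list. Its Control 1 and Control 2 peaks shared only positions -278 to -159 nt from the stop codon, outside the FUSO 1 peak at -1056 to -308 nt. A DUSP6 region in the 5′UTR was also in every list, with scores of 4.3e-09 and 2e-20 in Control and 4e-24 and 7.9e-20 in FUSO. DUSP10, the lowest mRNA, had 150 nt at the stop codon in Control 2 (score 0.00045) and 91 nt of 3′UTR in FUSO 1 (score 0.0041), and no peak in the other libraries. In all, 5 of the 20 member regions were in a single list, from DUSP4, DUSP5, DUSP10 and DUSP16. The share over all regions was not computed, so this count is not a trait of the members.

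A region is called lost when both Control lists and no FUSO list had a peak in it, and gained in the opposite case. Of the 20 member regions 2 were lost and 1 was gained, while 2.64% of all regions were lost and 2.38% gained. With so few, the count for the members is small beside what 1 region would change. The lost DUSP2 region, chr2:96809440-96809499, was a single 60 nt stretch of 3′UTR just past the stop codon with scores of 0.0071 and 8.5e-05 and no DRACH sequence. The lost DUSP8 region, chr11:1577845-1578083, lay in the coding sequence at positions -336 to -98 nt from the stop codon, with scores of 7.8e-05 and 0.00012, in a gene whose mRNA rose. A second DUSP8 region, chr11:1578233-1578590, was in Control 1 with a score of 4.2e-05 and in FUSO 1 and FUSO 2 with 1.3e-16 and 0.00014, so the pair of DUSP8 regions did not move one way. The gained DUSP6 region, chr12:89741810-89742108, lay in the 3′UTR from 922 to 1220 nt past the stop codon, with scores of 3.2e-07 and 0.00012, and covered 61 nt in FUSO 1 and 299 nt in FUSO 2. It held 4 DRACH sequences and no GGAC, the most favoured core of DRACH, and its GC content of 30.8% compares with a median of 51.5% over all regions. At a score of at most 1e-05, 0 of 11 member regions were lost and 0 gained, where 2.59% and 2.25% of all regions were. Leaving out a list raised the counts over all regions too. Without Control 1, 4 of 19 member regions were lost and 2 gained, against 11.3% and 4.31% of all regions. Without FUSO 2, 3 of 22 were lost and 3 gained, against 4.44% and 11.3% of all regions.

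Shown here are the 3 members that rose and DUSP6, the most abundant member in Control. DUSP7 is added as the tested member with the smallest mRNA difference. The sequences come from the region with the lowest score of each gene. Each is the DRACH nearest to the middle of the region, in capitals, with 12 bases on either side, 5′ to 3′ on the strand of the gene, read from GRCh37.
DUSP1: cacatcccattgGGACTccatgctccttg
DUSP5: cctgccctcttgGGACTgcccagtccttg
DUSP6: gggtcagctgctGGACTtcgagaggacgc
DUSP7: cagtggattgtaTAACCcagtatttcatc
DUSP8: ctccttctccctGGACAtcaagtctgcct
The DUSP1, DUSP5 and DUSP6 windows share the core GGACT, that of DUSP8 is GGACA and that of DUSP7 is TAACC. Windows picked in the same way but not printed had the core TGACA in DUSP10 and DUSP14 and GAACC in DUSP16. They lie at chr5:172195712-172195740 in the 3′UTR, chr10:112270430-112270458 in the 3′UTR, chr12:89743138-89743166 in the coding sequence, chr3:52084343-52084371 in the 3′UTR and chr11:1578422-1578450 in the coding sequence. The A inside the core lies 38 nt past the stop codon in DUSP1 and 259 nt past it in DUSP5. Which adenosine carries the mark cannot be read from peaks of this width. The main region of DUSP5 held 32 DRACH and 9 GGAC sequences, that of DUSP6 43 and 14, and that of DUSP7 29 and 12. Over all regions 94.8% held a DRACH and 72.8% a GGAC, and regions present in every list held a GGAC in 90% of cases at a median length of 595 nt.

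Several members are short-lived mRNAs, so their 3′UTRs were searched on the sense strand for the AU-rich nonamer TTATTTATT, which marks mRNAs for rapid decay. DUSP1 held 2 of these in a 3′UTR of 666 nt, and DUSP4 and DUSP8 held 1 each in 3962 and 2467 nt. The other 7 members held none. Among 19381 3′UTRs 8.43% held the nonamer, and among those of a length within 20% of the gene's own the share was 4.47% for DUSP1, 17.9% for DUSP4 and 12.3% for DUSP8. DUSP5, with the largest mRNA difference of the members, held none in 1107 nt, and no ATTTA pentamer either.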

How the data were processed

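The authors trimmed reads with Trim Galore 0.3.3, aligned them to hg19 with HISAT2 2.1.0 and computed FPKM of the input libraries with StringTie, per the labels and methods. Deposited FPKM are scaled by length and total; without counts the DESeq2 model of the study was not usable. The 4 deposited peak lists, 1 per biological replicate, hold only a score of 0 to 0.012, read as the authors' p-value. The methods name MACS2, the layout with exon blocks is like that of exomePeak, and the program was not settled.

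Members and lists were chosen with earlier results of these data known. limma 3.58.1 (R 4.3.3, trend, no covariate) tested log2(FPKM + 1), which understates changes of low genes, for the 11088 genes that averaged 1 FPKM or more, with Benjamini-Hochberg adjustment over all of them. Peaks sharing 1 bp of exon on a strand were merged into regions, assigned by the deposited gene name and placed on canonical GENCODE 44 transcripts mapped to GRCh37. Relative depth is the most frequent ratio of values at or under 0.05 FPKM.

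Named were all members, called genes of the other lists (other dual-specificity phosphatases, other MAPK phosphatases, MAP kinases, MAP2K, MAP3K, Sprouty and SPRED, immediate early and ERK output), otherwise the gene of largest difference in each, and the 5 genes nearest to each called member. Epithelial and other-cell markers checked the cell line. The fits were tested on simulated data. Alternatives were another pseudocount, no filter, quantile normalization, no trend, a replicate block, a GC correction, other peak overlap, score and assignment, and each library left out.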

Additional observations from a re-analysis of the deposited data

How the results depend on the processing

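The calls of DUSP1, DUSP5 and DUSP8 held with a pseudocount of 0.1, quantile normalization, no trend, a replicate block, a GC correction and without Control replicate 1 or 2. With no filter on low values, which tests 15695 genes, 1 member was called, DUSP5, and the log2 difference of DUSP1 was 0.95 (limma adjusted p = 0.0663) and that of DUSP8 0.79 (adjusted p = 0.0843). Leaving out 1 library gave 0 to 3 called members and 1 to 11 called genes of the other lists, against 6, with 0 members without FUSO 1 or without FUSO 2. In these fits the lone library of a group is assumed to vary like the other group. The log2 differences then ranged over 0.86 to 1.03 for DUSP1, 1.02 to 1.18 for DUSP5 and 0.76 to 0.82 for DUSP8. The replicate numbers share only a number: deviations of same-numbered libraries correlated at 0.0243 over 11088 genes, and the fit with a replicate block called 75 genes higher and 15 lower, with the call of IER2 lost (0.43, adjusted p = 0.06). EGR1 and IER2 were also lost with no filter (adjusted p = 0.0814 and 0.0634) and without trend (0.0588 and 0.114). DUSP7 changed sign under the GC correction (0.017), without Control 1 (0.0047) and without FUSO 1 (0.028), over a range of -0.032 to 0.028 with 1 library left out, and MAP2K7 without Control 2 (0.0018), over -0.74 to 0.0018. Over all genes, calls fell to 35 higher and 5 lower with no filter, 51 and 9 without trend, 16 and 8 without FUSO 1 and 13 and 3 without FUSO 2, and rose to 136 and 36 without Control 1 and 185 and 99 without Control 2. Member regions lost and gained numbered 2 and 0 at a reciprocal overlap of 50% (2.61% and 2.65% of all regions), and 0 and 0 at a score of at most 1e-05 (2.59% and 2.25%). With 1 list left out they ranged over 2 to 4 and 1 to 3, against 4.44% to 11.3% and 4.31% to 11.3% of all regions, with 11 to 12 in all remaining lists. Present in all 4 lists were 9 of 35 member regions at the reciprocal overlap, against 9648 of 31041 regions. At the stricter score it was 8 of 11, against 8299 of 13480. Regions assigned by exon overlap gave the same counts as the gene names. The absolute depth was unknown, so no floor could be given for a gene at 0 or a region with no peak, and 2 libraries a group limit each test.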
